A study of Mus musculus with 54 samples.

Results

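The response of the lateral entorhinal cortex (LEC) to voluntary running was compared between day 28 and day 7. For each gene the difference between running mice (RUN28) and control mice (CTR28) at day 28 was taken, and the same difference between RUN7 and CTR7 at day 7 was subtracted from it. The members are the arrays of these 4 groups, chosen by their labels, and they number 13 of the 54 arrays of the series: 3 of CTR7, 3 of RUN7, 4 of CTR28 and 3 of RUN28. All 13 came from male C57BL/6J mice that were 1 month old when treatment began and were housed individually. CTR and RUN mice alike were given saline vehicle intraperitoneally, RUN mice had free access to running wheels, and no mouse of these 4 groups received AICAR. The days were studied in different mice, and each array held the RNA of 1 tissue sample from 1 mouse. The labels give this for both days. The study's methods, which do not describe mice of day 28, state that RNA samples were selected for purity and concentration. The series also holds the dentate gyrus (DG), mice given AICAR (ACR) and mice of day 14. Mice of day 28 were older at the end than mice of day 7, so that running time and age changed together in the comparison, and only the controls of the same day separate them.

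The lateral entorhinal cortex is the part of the temporal lobe cortex that sends information about objects and odours to the hippocampus, chiefly through the reelin-positive neurons of its superficial layers. Voluntary running is known to raise the demand for energy in brain tissue, to act on its blood vessels and to change neuronal activity, growth factors and plasticity in the hippocampal formation. Many genes of neuronal activity respond within minutes to hours, whereas the genes of mitochondria, ribosomes and myelin are usually regulated more slowly.

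Levels are log2 intensities scaled so that the mean of every array is 0, and a difference of 1 is a 2-fold change. On the 13 arrays between 11575 and 12229 probes were detected, and correlations within a group ran from 0.978 to 0.993. The third CTR28 array had the narrowest spread of log2 intensities (SD 1.57, against 1.68 to 1.86 on the other 12). The tissue label was set beside 15 measured markers of cortical layers and 5 of dentate granule neurons. Of the cortical markers 3 were higher on each of these LEC arrays than on every one of the 12 DG arrays of the same days, and 0 the reverse. Of the dentate markers 3 were higher on every DG array and 0 the reverse. The same count over all genes is not given here, so that these counts are a description. These are bulk tissue samples, in which fewer cells of a type and less RNA per cell cannot be told apart. Nothing in the labels gives a slide or a scan for these arrays, and p-values measure only the spread between them.

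Running altered many genes differently at day 28 than at day 7, with similar numbers in each direction. Of 8545 genes tested, 1493 were called at an adjusted p under 0.05 by limma (17.5%), 744 higher (8.71%) and 749 lower (8.77%) in the day 28 response, and the median over all genes was -0.01. In the separate comparisons, 83 genes differed between RUN7 and CTR7 (0.971%), 61 higher (0.714%) and 22 lower (0.257%), while 1275 differed between RUN28 and CTR28 (14.9%), 620 higher (7.26%) and 655 lower (7.67%). The number of calls varied with single arrays. Without the first CTR7 array 778 genes were called in the difference between days, without the third RUN7 array 935 and without the third RUN28 array 839, against 1089 to 1765 without any of the other 10. No called gene turned its sign in any of these refits, and 765 of the 778 were among the 1493. The day 7 count was less stable, with 0 calls without the third RUN7 array, 2, 14 and 430 without CTR7 replicates 1, 2 and 3, and 339 and 8 without the first and second RUN7 array. At day 28 the count was 617 without the second and 834 without the fourth CTR28 array, and 580 and 314 without RUN28 replicates 2 and 3.

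Among the called genes, the estimates of the running effect mostly had opposite signs at day 7 and day 28. Of the 1493 genes, 1474 (98.7%) had opposite signs of the running effect at day 7 and day 28, 16 had the same sign with a larger effect at day 28, and 3 had the same sign with a smaller effect at day 28. Opposite signs are favoured by the way the difference is formed, so that their share among called genes is a description. Among the 7052 genes not called 3861 (54.8%) had them too, but these genes did not pass the test of the difference and are no matched baseline. Of the 1474 genes, 74 also passed the test at day 7 and 850 at day 28, 26 passed on both days and 576 on neither. For genes outside these 26 a reversal was not established, since not both effects passed the test. The 26 themselves rest on the day 7 calls, of which 0 remained without the third RUN7 array and in a fit of the compared groups alone. The 744 genes higher in the day 28 response had a median running effect of -0.26 at day 7 and 0.37 at day 28, and the 749 lower genes one of 0.31 and -0.41.

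**Figure D1:**
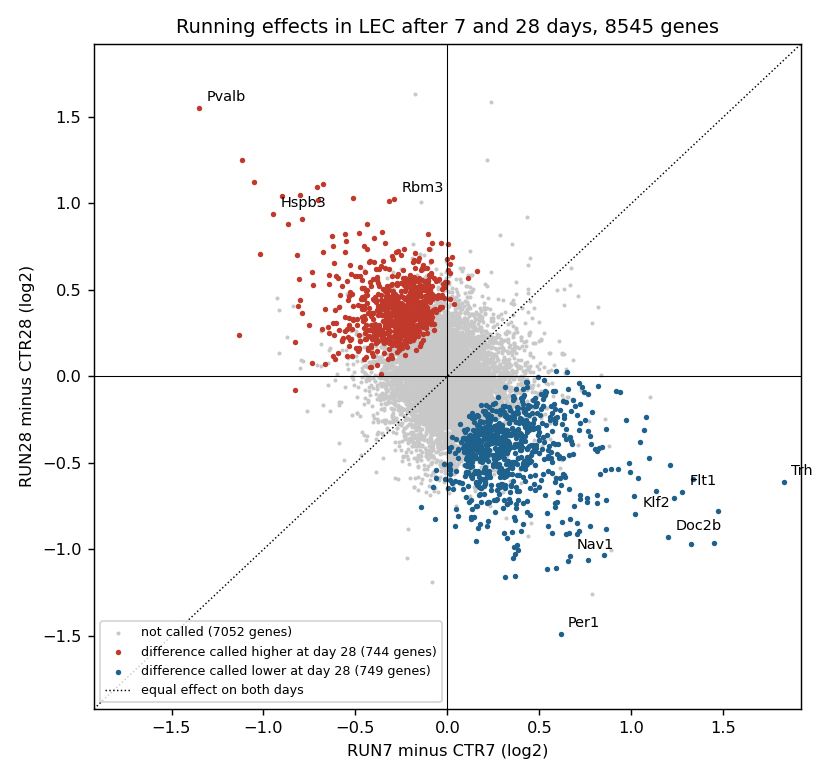
Running effect at day 7 (RUN7 against CTR7, log2, x axis) and at day 28 (RUN28 against CTR28, log2, y axis) for the 8545 genes, with the genes called in the difference between days in colour and the line of equal effects dotted. Most called genes lie in the quadrants of opposite signs, with Pvalb at the upper left, at -1.35 and 1.55.

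Among the genes that rose in the day 28 response relative to day 7, Cox7a1 had the smallest p. It encodes a muscle-type subunit of cytochrome c oxidase, the last enzyme of the respiratory chain. Its level was 0.45, 0.42 and -0.06 in CTR7 and -0.42, -0.22 and -0.47 in RUN7, but -0.41, -0.50, -0.49 and -0.41 in CTR28 and -0.02, 0.17 and 0.26 in RUN28. Runners were therefore below all controls at day 7 and above all controls at day 28, without overlap on either day. The difference between days was 1.23 ± 0.15 (SE, adjusted p = 6.75e-05), made of -0.64 at day 7 (adjusted p = 0.0103) and 0.59 at day 28 (adjusted p = 0.00128). The levels of Cox7a1 were low, close to the array mean, and its difference ranged from 1.23 to 1.84 with other ways of processing. Uxt, a small prefoldin-like chaperone, had levels of 1.73, 1.58 and 1.52 in CTR7, 1.31, 1.26 and 1.21 in RUN7, 0.96, 0.92, 1.10 and 0.94 in CTR28 and 1.67, 1.56 and 1.71 in RUN28. It rose by 1.02 ± 0.15 (adjusted p = 0.000327), and the control level of day 28 was the lowest of the 4 groups. Kif22, a chromosome-binding kinesin of cell division, also had its lowest level in CTR28, with a larger range between groups. Its levels were 1.55, 1.18 and 1.20 in CTR7 and 0.95, 1.16 and 0.87 in RUN7, while they were 0.25, -0.05, 0.03 and 0.14 in CTR28 and 0.91, 1.30 and 1.11 in RUN28 (difference 1.33 ± 0.19, adjusted p = 0.000327).

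The other genes of the 12 with the smallest p among those that rose have diverse functions. Hspb3, a small heat shock protein best known from muscle, rose by 1.89 ± 0.31 (adjusted p = 0.00066), from an effect of -0.95 at day 7 (adjusted p = 0.043) to 0.94 at day 28 (adjusted p = 0.00598). Ramp3, which directs calcitonin receptor-like receptors to their ligands, stood at 1.74, 1.20 and 0.86 in CTR7, 0.62, 0.46 and 0.02 in RUN7, 0.41, 0.41, 0.09 and 0.30 in CTR28 and 0.91, 1.30 and 1.83 in RUN28. The difference of Ramp3 was 1.95 ± 0.33 (adjusted p = 0.000851), and its 2 other probes gave 1.76 and 1.78. P2rx4, an ATP-gated cation channel, rose by 1.24 (adjusted p = 0.000824), although its second probe gave 0.40 and was not called (adjusted p = 0.0708). Fuom, the fucose mutarotase, rose by 1.12 (adjusted p = 0.000381) on the brighter probe and had 0.21 (adjusted p = 0.543) on the other. Chil1, a secreted chitinase-like protein, rose by 0.97, the keratin gene Krt12 by 0.97 and the mitochondrial ribosomal gene Mrpl30 by 0.72, while Tmem141 and 1700016K19Rik, for which no role is given here, rose by 0.97 and 0.99. On both days the running and control arrays of all 12 genes did not overlap. Over all genes tested, the arrays did not overlap for 15.4% at day 7 and for 28.4% at day 28, and for 4.34% they did so on both days in opposite directions. The 12 genes were chosen on this contrast, so that their lack of overlap is a description.

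Among the 12 genes with the smallest p that fell, Nav1, a microtubule-associated protein of growing neurites, had levels of 3.23, 3.84 and 3.84 in CTR7, 4.23, 4.28 and 4.40 in RUN7, 4.03, 4.11, 3.74 and 4.03 in CTR28 and 3.24, 2.77 and 2.80 in RUN28. It was thus above all controls in runners of day 7 and below all controls in runners of day 28, and the difference fell by 1.70 ± 0.21 on the log2 scale (adjusted p = 6.75e-05; second probe -1.45). Bahcc1, a chromatin protein with a BAH domain, showed 0.50, 0.52 and 1.04 in CTR7, 1.17, 1.57 and 1.48 in RUN7, 1.19, 1.68, 1.14 and 1.52 in CTR28 and 0.70, 0.42 and 0.35 in RUN28 (difference -1.61 ± 0.20, adjusted p = 6.75e-05). Klf2, a transcription factor that is induced by blood flow in endothelium, rose at day 7 and fell at day 28. Its levels were -0.11, -0.14 and 0.26 in CTR7, 0.95, 1.01 and 1.11 in RUN7, 1.07, 1.39, 0.83 and 1.09 in CTR28 and 0.45, 0.12 and 0.32 in RUN28 (difference -1.82 ± 0.28, adjusted p = 0.000381). Col18a1, a basement membrane collagen, differed by -1.20 ± 0.18 (adjusted p = 0.000381), with effects of 0.61 at day 7 and -0.59 at day 28.

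Prrc2b, an RNA-associated protein that promotes translation, fell by 1.34 and Tnrc6c, which acts in silencing by microRNAs, fell by 1.57 in the same contrast. The protein kinase gene Prkd2 had -1.13, the fibrosin-like gene Fbrsl1 -1.05, the nuclear pore gene Nup210 -0.84 and Zcchc14 -1.27. Gpr17, a receptor of maturing oligodendrocyte precursors, differed by -1.20 and Fam126a (hyccin), a membrane lipid regulator needed for myelination, by -1.05. All 12 were separated at day 28, and 11 also at day 7. The exception was Gpr17, which had 2.06, 2.12 and 2.59 in CTR7 and 2.52, 2.55 and 2.79 in RUN7. Adjusted p-values of these 8 genes lay between 0.000317 and 0.000476.

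**Figure D2:**
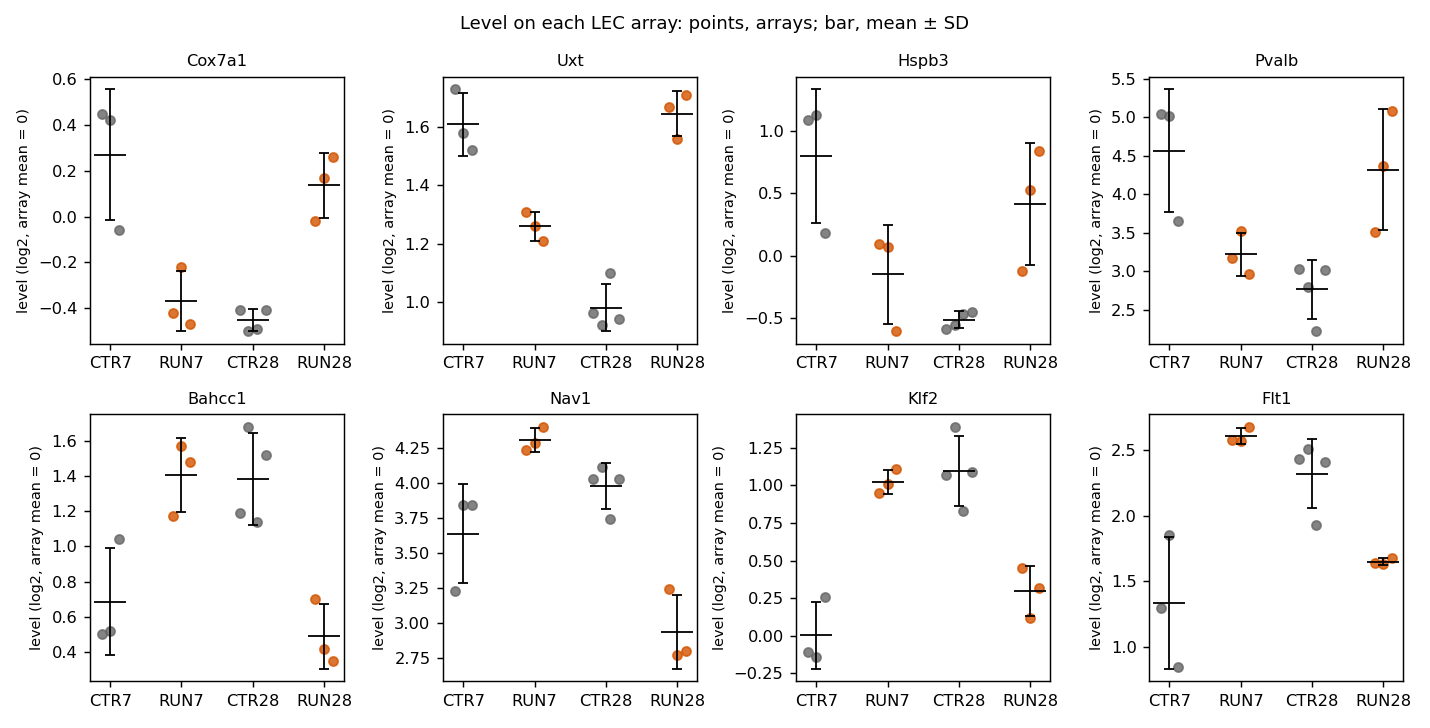
Levels of 8 named genes (log2, array mean 0, y axis) on each LEC array of CTR7, RUN7, CTR28 and RUN28, with a point for each array and bars for the group mean ± SD (n = 3, 3, 4 and 3). In each panel the order of runners and controls at day 28 is the reverse of that at day 7, with Cox7a1 runners at -0.02 to 0.26 and controls at -0.50 to -0.41 on day 28.

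Genes of the mitochondrial ribosome, which translates the proteins encoded by mitochondrial DNA, formed the group with the most calls, all in one direction. Of 66 measured, 30 rose and 0 fell in the day 28 response relative to day 7, with a median of 0.40, against 8.71% higher and a median of -0.01 over all genes tested. The day 7 effect of the group had a median of -0.11, and 1 gene, Mrpl30, was called lower. At day 28 the median was 0.28 and 31 were called higher. Mrpl30 had levels of 2.90, 2.58 and 2.55 in CTR7, 2.40, 2.25 and 2.27 in RUN7, 2.21, 2.15, 2.22 and 2.33 in CTR28 and 2.54, 2.58 and 2.64 in RUN28 (adjusted p = 0.000671). Mrpl11 rose by 0.69 ± 0.13 (adjusted p = 0.0015) and Mrps33 by 0.70 ± 0.13 (adjusted p = 0.00182). The mean level of the list was 2.70 to 2.74 on RUN28 arrays and 2.39 to 2.48 on CTR28 arrays, without overlap, whereas it was 2.40 to 2.54 on RUN7 and 2.49 to 2.69 on CTR7 arrays, which overlapped. Without the first CTR7 array 15 of the 66 were called, and without any other array 20 to 30.

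Promoters of mitochondrial genes are known for binding sites of the transcription factors YY1 and NRF1 and of the ETS family. In the mitochondrial lists together, 61 genes rose, and for 53 of them RefSeq (GRCm38.p6) gave a promoter window of 250 bases before to 50 bases after the start. The letters AAGATGGC of YY1 were found on either strand in 11 of the 53 (20.8%), in 10 of 64 members that were not called (15.6%) and in 3.19% of 27025 genes. The letters CCGGAAGT of ETS factors were in 7 of the 53 (13.2%), in 10 of the 64 (15.6%) and in 4.31% of all genes. The E-box letters CACGTG, which belong to the clock proteins CLOCK and BMAL1 among others, were in 5 of the 53 (9.43%), in 6 of the 64 (9.38%) and in 8.09% of all genes. The following stretches show these letters, in capitals, in 5 mitochondrial ribosome genes that rose and in Per1, a clock gene that fell. Only the letters named beside a stretch are in capitals, and that of Mrpl36 also holds the E-box letters, in lower case. The genes are the members with the smallest p that hold the letters, and a match is no evidence that a factor binds there.
Mrpl36, YY1 letters on the opposite strand, starting at -30, chr13:73330953-73331012, + strand: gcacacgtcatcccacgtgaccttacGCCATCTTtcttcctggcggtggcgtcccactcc
Mrps7, YY1 letters, starting at 18 after the start, chr11:115604132-115604169, + strand: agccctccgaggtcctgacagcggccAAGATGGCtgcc
Mrps12, YY1 letters on the opposite strand, starting at -199, chr7:28741987-28742046, - strand: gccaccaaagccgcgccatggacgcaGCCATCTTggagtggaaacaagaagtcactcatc
Mrpl27, ETS letters, starting at -55, chr11:94653710-94653769, + strand: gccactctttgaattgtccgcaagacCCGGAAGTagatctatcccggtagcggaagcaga
Mrpl33, ETS letters, starting at -3, chr5:31613922-31613980, + strand: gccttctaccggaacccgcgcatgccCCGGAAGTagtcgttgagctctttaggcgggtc
Per1, E-box letters, starting at -166, chr11:69098757-69098814, + strand: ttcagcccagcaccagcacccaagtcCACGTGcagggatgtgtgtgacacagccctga
The differences between days of these genes were 0.63 for Mrpl36, 0.50 for Mrps7, 0.51 for Mrps12, 0.64 for Mrpl27 and 0.68 for Mrpl33.

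The respiratory chain followed the mitochondrial ribosome. Of 32 measured subunits and assembly genes of complex I, the entry point for electrons from NADH, 15 rose and 0 fell (median 0.48), and of 35 genes of complexes II to IV and ATP synthase 16 rose and 0 fell (median 0.49). Ndufs4, a subunit needed for complex I stability, had 4.61, 4.51 and 4.28 in CTR7, 3.98, 4.23 and 4.18 in RUN7, 4.23, 3.97, 4.24 and 4.14 in CTR28 and 4.53, 4.54 and 4.77 in RUN28. Its difference was 0.80 ± 0.16 (adjusted p = 0.00282), and 3 further probes of the gene gave 0.59 to 0.92, all called. Atp5l, a subunit of ATP synthase, rose by 0.96 ± 0.20 (adjusted p = 0.00379), and Sdhb, the iron-sulfur subunit of succinate dehydrogenase, by 0.81 ± 0.18 (adjusted p = 0.00466). Ndufa7 rose by 0.73, Atp5j2 by 0.76 and Ndufa12 by 0.66. Without the first RUN7 array the median of complexes II to IV and ATP synthase was 0.30. Here the day 28 effect carried the difference, with medians of 0.44 and 0.35 and 23 and 14 genes called higher, against medians of -0.08 and -0.09 and 0 calls at day 7. For complex I the mean level was 4.32 to 4.42 in RUN28, above 3.80 to 4.03 in CTR28, while RUN7 (3.67 to 4.13) and CTR7 (3.85 to 4.10) overlapped. The counts depended on single arrays, with 9 complex I genes without the first CTR7 array, 8 without the first RUN7 array and 8 without the third RUN28 array, and with 4, 7 and 5 genes of the other complexes, which had 10 without the third RUN7 or the second CTR28 array. Glycolysis and the citric acid cycle, by comparison, had 2 genes higher of 28, Sdhb and the fumarase gene Fh1 (0.60, adjusted p = 0.0235; lost without the first CTR7, the third RUN7 or the third RUN28 array), and a median of 0.16 (0.11 without the second CTR7 and 0.08 without the first RUN7 array).

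Protein synthesis and breakdown showed the same direction with fewer calls. Of 51 genes of the cytosolic ribosome 10 rose and 0 fell (median 0.35), among them Rpl36a (0.94 ± 0.17, adjusted p = 0.00157) and Rpl23a (0.64 ± 0.12, adjusted p = 0.00192). Rpl36a had levels of 4.07, 3.86 and 3.94 in CTR7, 3.54, 3.72 and 3.37 in RUN7, 3.58, 3.51, 3.84 and 3.75 in CTR28 and 4.32, 4.05 and 4.21 in RUN28, with no overlap on either day. Ribosomal protein genes have many near-identical pseudogenes, and their probes may not separate them. Of 30 proteasome genes 10 rose and 0 fell (median 0.32), including Psma7, a subunit of the core ring (0.66, adjusted p = 0.00819), and Psmc3, an ATPase of the cap (0.51, adjusted p = 0.00857). Without the first CTR7 array 4 ribosomal and 2 proteasome genes were called, and 18 ribosomal genes were called without the third CTR28 array. Leaving out the first RUN7 or the second CTR28 array left 6 ribosomal genes, and proteasome calls were 5, 4 and 3 without the third RUN7, the second CTR28 and the third RUN28 array.

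Myelin genes had a larger median difference than these groups. Of 16 measured genes of myelin and oligodendrocytes, the cells that wrap axons, 8 rose and 0 fell (median 0.83), with medians of -0.37 at day 7 and 0.44 at day 28. Opalin, a membrane protein of myelinating oligodendrocytes, stood at 3.21, 2.56 and 2.15 in CTR7, 1.89, 2.07 and 1.85 in RUN7, 1.87, 1.73, 1.79 and 1.96 in CTR28 and 2.70, 2.74 and 3.14 in RUN28 (difference 1.72 ± 0.33, adjusted p = 0.00193). Mog, a protein of the outer myelin surface, rose by 1.85 ± 0.43 (adjusted p = 0.00604; second probe 1.78) and Qdpr, an enzyme of biopterin recycling that oligodendrocytes express strongly, by 0.98 ± 0.21 (adjusted p = 0.00366). Mbp had 0.60 and was not called, and Olig1 had -0.08. The mean level of the 16 genes was 3.20 to 3.70 in RUN28 against 2.89 to 2.99 in CTR28, and 2.72 to 3.07 in RUN7 against 3.11 to 3.54 in CTR7, without overlap on either day. Only 3 were called without the first CTR7, the second RUN7 or the third RUN28 array, and 5 without the second CTR7, the third RUN7, the first CTR28 or the fourth CTR28 array. The part of these myelin levels in the other differences was not tested.

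**Figure D3:**
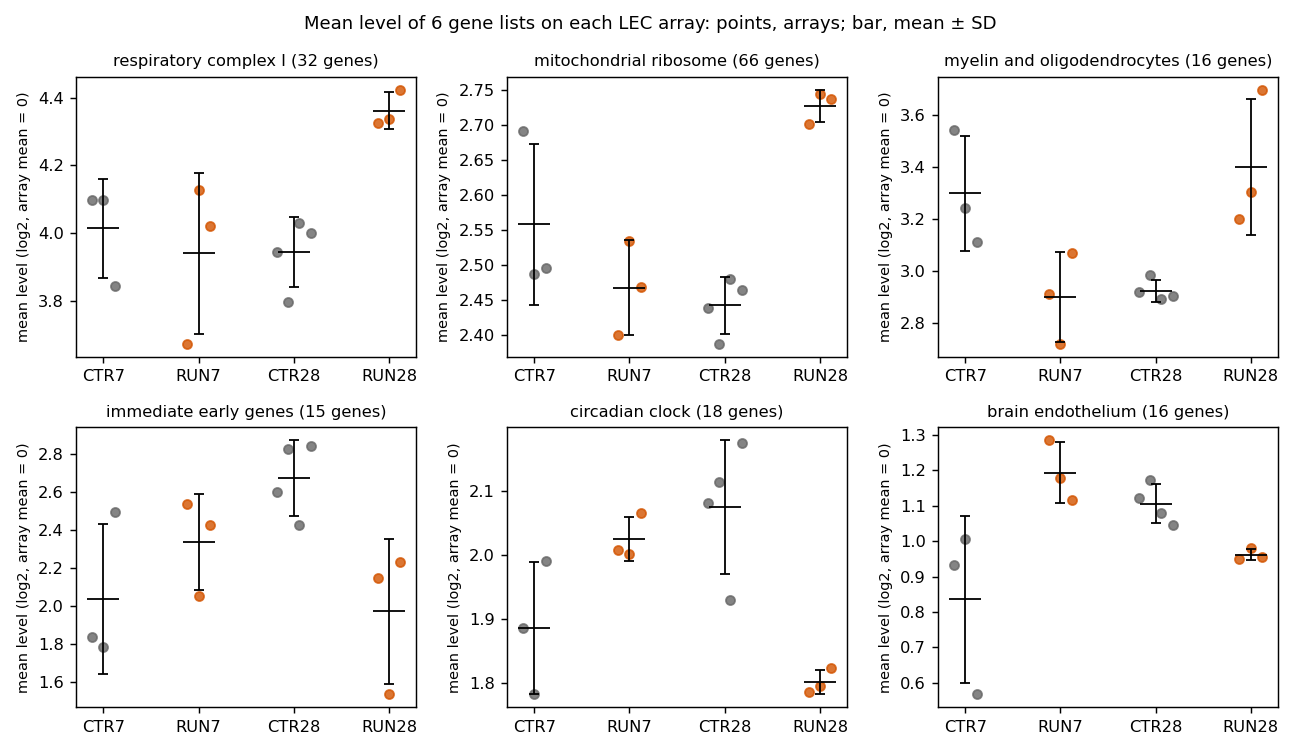
Mean level of the measured genes of 6 lists (log2, array mean 0, y axis) on each LEC array, with points for arrays and bars for the group mean ± SD. The mitochondrial ribosome is highest on the 3 RUN28 arrays, and the immediate early genes are lower on all 3 RUN28 arrays (1.54 to 2.23) than on the 4 CTR28 arrays (2.43 to 2.84).

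The 3 largest rises of all genes tested were those of Pvalb, Tnnc1 and Myl4. Pvalb, the calcium buffer of fast-spiking inhibitory neurons, stood at 5.04, 5.02 and 3.65 in CTR7, 3.18, 3.52 and 2.96 in RUN7, 3.03, 2.80, 2.22 and 3.02 in CTR28 and 3.51, 4.37 and 5.08 in RUN28. Its difference was 2.90 ± 0.52 (adjusted p = 0.00129), of which 1.55 was the effect at day 28 (adjusted p = 0.00603) and -1.35 that at day 7 (adjusted p = 0.0726). Runners and controls did not overlap on either day, but the spread within CTR7 and within RUN28 was over 1 log2 unit. Of 14 muscle-type genes on the array 5 were measured, and 3 of these rose, beside 8.71% higher over all genes tested. Tnnc1, the calcium sensor of slow and cardiac muscle, was 2.33, 3.60 and 1.69 in CTR7, 1.55, 1.65 and 1.07 in RUN7, 1.11, 0.91, 0.43 and 1.19 in CTR28 and 1.69, 1.94 and 2.85 in RUN28 (difference 2.37 ± 0.46, adjusted p = 0.00201). Myl4, a myosin light chain of atrial and fetal muscle, rose by 2.17 ± 0.43 (adjusted p = 0.00223) and the slow troponin Tnnt1 by 1.55 ± 0.38 (adjusted p = 0.00799). 

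Genes of inhibitory neurons had few calls, in both directions, beside 8.71% higher and 8.77% lower over all genes tested. Of 14 measured genes of GABA neurons and receptors 2 rose, Pvalb and the receptor subunit gene Gabrd (0.85), and 2 fell, with a median of -0.06, and 1 rose without 9 of the 13 arrays, each left out in turn. Gabrb1, another receptor subunit gene, fell by 1.12 (adjusted p = 0.00176), with effects of 0.66 at day 7 and -0.46 at day 28 that were each called. Reln, the secreted protein of entorhinal superficial neurons, was 3.70, 3.51 and 4.28 in CTR7, 4.33, 4.21 and 4.24 in RUN7, 4.02, 4.21, 4.33 and 4.31 in CTR28 and 3.74, 3.57 and 3.18 in RUN28. It fell by 1.15 ± 0.25 (adjusted p = 0.0037), chiefly through the day 28 effect of -0.72.

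Both cold-inducible RNA-binding genes rose, Rbm3 by 1.32 ± 0.24 (adjusted p = 0.0015) and Cirbp by 0.64 ± 0.16 (adjusted p = 0.00787). They encode RNA-binding proteins that cells make at mildly lowered temperature. Rbm3 had 3.71, 3.27 and 3.36 in CTR7, 2.96, 3.44 and 3.07 in RUN7, 2.80, 2.79, 3.02 and 2.70 in CTR28 and 3.77, 3.91 and 3.87 in RUN28. At day 28 every runner was above every control, and at day 7 the groups overlapped.

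Microglial genes rose in a larger share than the 8.71% of all genes tested, but the count rested on single arrays. Of 14 measured, 4 rose and 0 fell (median 0.46), among them Trem2, a lipid receptor of microglia (0.57 ± 0.15, adjusted p = 0.0117), and the complement gene C1qb (0.59 ± 0.18, adjusted p = 0.0292; lost without 7 of the 13 arrays, each left out in turn). Cx3cr1, which defines these cells, had 0.02, and Tmem119 had -0.08. The mean level was 1.51 to 1.54 in RUN28 and 1.19 to 1.64 in CTR28, which overlapped. The count ranged from 1 to 8 when single arrays were left out, with 1 without the first or second CTR7, the first RUN7, or the first or second CTR28 array, 2 without the third RUN7 or the first RUN28 or the third RUN28 array and 8 without the third CTR28 array.

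Immediate early genes, which neurons switch on within minutes of firing, formed the opposite group. Of 15 measured, 5 fell and 0 rose (median -1.11), with a median effect of 0.33 at day 7 and -0.65 at day 28. Per1, which belongs to this list and to the clock, fell most. Its levels were 1.76, 2.13 and 2.32 in CTR7, 2.42, 2.69 and 2.96 in RUN7, 3.27, 3.68, 2.60 and 3.89 in CTR28 and 1.94, 1.85 and 1.82 in RUN28 (difference -2.11 ± 0.43, adjusted p = 0.00282; second probe -1.72). Egr4 fell by 1.74 ± 0.48 (adjusted p = 0.0145) and Jun by 0.75 ± 0.20 (adjusted p = 0.0127), calls that both were lost without the first CTR7 array, and for Jun also without the third RUN28 array. Fosb (-1.52) and Junb (-1.56) were called too, whereas Fos (-1.30), Arc (-1.11), Egr2 (-2.04) and Npas4 (-0.51) had negative values that did not pass the test. Without the first CTR7 array 2 genes of the list were called, without the second RUN28 array 3 and without any other array 4 to 7. The median was -0.59 without the second RUN28 array.

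Clock genes fell in part, beside 8.77% lower over all genes tested. Of 18 measured, 4 fell and 0 rose (median -0.29): Per1, Per2, the casein kinase gene Csnk1d and Bhlhe40. Per2, a repressor of the clock loop, had 1.43, 0.98 and 2.28 in CTR7, 2.37, 2.18 and 2.25 in RUN7, 2.44, 2.75, 1.84 and 2.60 in CTR28 and 1.73, 1.41 and 1.35 in RUN28 (difference -1.62 ± 0.31, adjusted p = 0.00178; second probe -1.54). The output genes Dbp (-0.22) and Nr1d1 (0.04) were not called. For Csnk1d the probe used gave -0.74 (adjusted p = 0.00787), while 4 others gave -0.05 to -0.51, of which 1 was called.

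Lists of vessel genes had positive medians of the running effect at day 7 and negative medians at day 28. Of 16 measured genes of brain endothelium 6 fell and 0 rose in the difference (median -0.47), and of 13 genes of pericytes and the vessel wall 5 fell and 0 rose (median -0.36). At day 7 the medians were 0.35 and 0.18, with 3 and 1 genes called higher, and at day 28 they were -0.15 and -0.19, with 2 endothelial genes called lower and 1 higher and 2 genes of the vessel wall called lower. Without the third CTR7 array the endothelial median of the difference was -0.26, and after neqc normalization that of the vessel wall was -0.62. Flt1, the VEGF receptor 1, was 1.30, 1.85 and 0.85 in CTR7, 2.58, 2.57 and 2.68 in RUN7, 2.43, 2.51, 1.93 and 2.41 in CTR28 and 1.64, 1.63 and 1.68 in RUN28, so that runners lay above all controls at day 7 and below them at day 28 (difference -1.94 ± 0.31, adjusted p = 0.000508). Slc2a1, the glucose transporter of the blood-brain barrier, fell by 0.90 ± 0.17 (adjusted p = 0.00194), from 0.53 at day 7 (adjusted p = 0.043) to -0.38 at day 28 (adjusted p = 0.0349). Slco1a4, an organic anion transporter of the same barrier, fell by 0.87 (adjusted p = 0.00283) and was detected on 2 of the 3 CTR7 arrays.

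In the vessel wall, the basement membrane collagen gene Col4a2 fell by 1.26 ± 0.29 (adjusted p = 0.00655). Acta2, the actin of smooth muscle, fell by 1.25 (adjusted p = 0.0143), with -0.28 and -0.77 on its 2 other probes. Pdgfrb, which defines pericytes, had -0.06, and Kdr, an endothelial VEGF receptor, had 0.01. The mean level of the endothelial list was 1.12 to 1.29 in RUN7 and 0.57 to 1.01 in CTR7, but 0.95 to 0.98 in RUN28 and 1.05 to 1.17 in CTR28, without overlap on either day. Without the first CTR7, the third RUN7 or the third RUN28 array 3 endothelial genes were called. For the vessel wall, leaving out the fourth CTR28 array left 2 calls, and leaving out the first CTR7, the second RUN7, the third RUN7, the first CTR28, the second CTR28, the second RUN28 or the third RUN28 array left 3.

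Lists of signalling and excitability had few calls. Over all genes tested 8.71% rose and 8.77% fell. The potassium channel list lay near both shares, and the Notch and calcium channel lists lay above the share of falls on 3 and 2 genes. Of 13 Notch pathway and Id genes 3 fell and 1 rose (median -0.38). Notch1, the receptor, stood at 0.39, 0.25 and 0.36 in CTR7, 0.61, 0.74 and 1.05 in RUN7, 0.78, 1.05, 0.91 and 1.27 in CTR28 and 0.35, 0.46 and 0.34 in RUN28 (difference -1.09 ± 0.20, adjusted p = 0.00171), and Id4, an inhibitor of neural differentiation factors, fell by 1.05 ± 0.20 (adjusted p = 0.00201). Of 10 voltage-gated calcium channel genes 2 fell (median -0.46). Cacna1h, a T-type channel, fell by 1.31 ± 0.21 (adjusted p = 0.000479) and did not overlap on either day. Among 26 glutamate receptor and postsynaptic density genes 3 fell (median -0.22, and -0.14 without the second CTR28 array), a share near the 8.77% of all genes, including the kainate receptor gene Grik5 (-1.36, adjusted p = 0.00642) and the inhibitory synapse adhesion gene Nlgn2 (-0.71, adjusted p = 0.00752). Of 33 potassium channel genes 3 rose and 3 fell (median 0.15, but 0.02 without the second CTR7 array and 0.04 without the second RUN7 array), with Kcnf1, a silent modifying subunit, at -0.82 (adjusted p = 0.00182) and Kcnk1, a background channel, at 0.91 (adjusted p = 0.00157). Calcium channel calls were 1 without the first CTR7 or the second RUN28 array and 5 without the third CTR28 array, and postsynaptic calls 5 without the second CTR7 or the third CTR28 array. Of the potassium channel genes 1 rose without the first CTR7 or the third RUN7 array and 5 rose without the first RUN28 array.

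Among growth factors and peptides the calls were few and mixed, beside 8.71% higher and 8.77% lower over all genes tested. Of 13 neurotrophin and activity growth factor genes 2 fell (median -0.23, and -0.38 after neqc normalization): Vgf, a secreted neuronal precursor (-1.25, adjusted p = 0.0108), and Vegfa (-0.51, adjusted p = 0.0197; second probe -0.28; lost without the third RUN7 array). Bdnf, the main neurotrophin of cortex, had 2.14, 1.99 and 2.13 in CTR7, 2.51, 1.91 and 1.80 in RUN7, 2.46, 2.22, 1.77 and 2.52 in CTR28 and 1.55, 1.98 and 1.50 in RUN28, with a difference of -0.55 ± 0.25 that was not called (adjusted p = 0.133). Its day 28 effect of -0.56 was called (adjusted p = 0.0312), although 1 RUN28 array overlapped the controls. The second probe of Bdnf had a day 28 effect of only -0.13 and a difference of -0.34 (adjusted p = 0.291). Of 16 neuropeptide genes 2 rose and 1 fell. Npy, of interneurons, rose by 1.06 ± 0.29 (adjusted p = 0.0146), a call lost without the third RUN28 array. Trh, thyrotropin-releasing hormone, stood at -1.03, -0.96 and 1.45 in CTR7, 1.79, 1.33 and 1.83 in RUN7, 1.84, 1.65, 1.95 and 1.96 in CTR28 and 2.18, 0.82 and 0.70 in RUN28. It fell by 2.44 ± 0.67 (adjusted p = 0.0152), but it was detected on 1 of the 3 CTR7 arrays, the groups overlapped on both days, and the call was lost without the first CTR7 array or the third RUN28 array.

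Markers of neighbouring regions had few calls, in short lists, beside 8.71% higher and 8.77% lower over all genes tested. Of 9 genes that mark hypothalamus and amygdala 2 fell and 0 rose (median -0.82), with a mean level of 0.24 to 0.80 in CTR7, 0.78 to 1.36 in RUN7, 0.85 to 1.53 in CTR28 and 0.67 to 1.20 in RUN28. Hap1, a huntingtin-associated protein abundant in hypothalamus and amygdala, was 3.28, 3.46 and 4.86 in CTR7, 4.99, 5.15 and 5.47 in RUN7, 5.54, 5.15, 6.21 and 5.20 in CTR28 and 5.72, 4.58 and 4.50 in RUN28. It fell by 1.93 ± 0.54 (adjusted p = 0.016), with -1.40 and -1.05 on 2 other probes that were not called. Without the first CTR7 or the third RUN28 array 0 genes of the list were called, and without the third RUN7 array 1. Of 15 cortical layer markers 2 fell, with Bcl11b, a transcription factor of deep-layer projection neurons, at -1.42 ± 0.28 (adjusted p = 0.00201), and 4 fell without the third CTR7 array but 1 without 10 of the other 12. Of 13 striatal markers 0 were called (median 0.04), although the RUN7 arrays ranged from 0.52 to 1.97 in their mean level, and the median was 0.57 without the third RUN7 array and -0.16 without the second. Of 5 dentate markers 1 fell (median -0.34), and of 3 choroid plexus genes 0 were called (median 0.43). These medians rested on single arrays. Without the second CTR7 array they were 0.005 for the dentate and -0.014 for the choroid plexus list, and without the first RUN7, the third RUN7 or the second CTR28 array the dentate median was -0.20, -0.17 or -0.19. The part of these marker levels in the other differences was not tested.

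**Figure D4:**
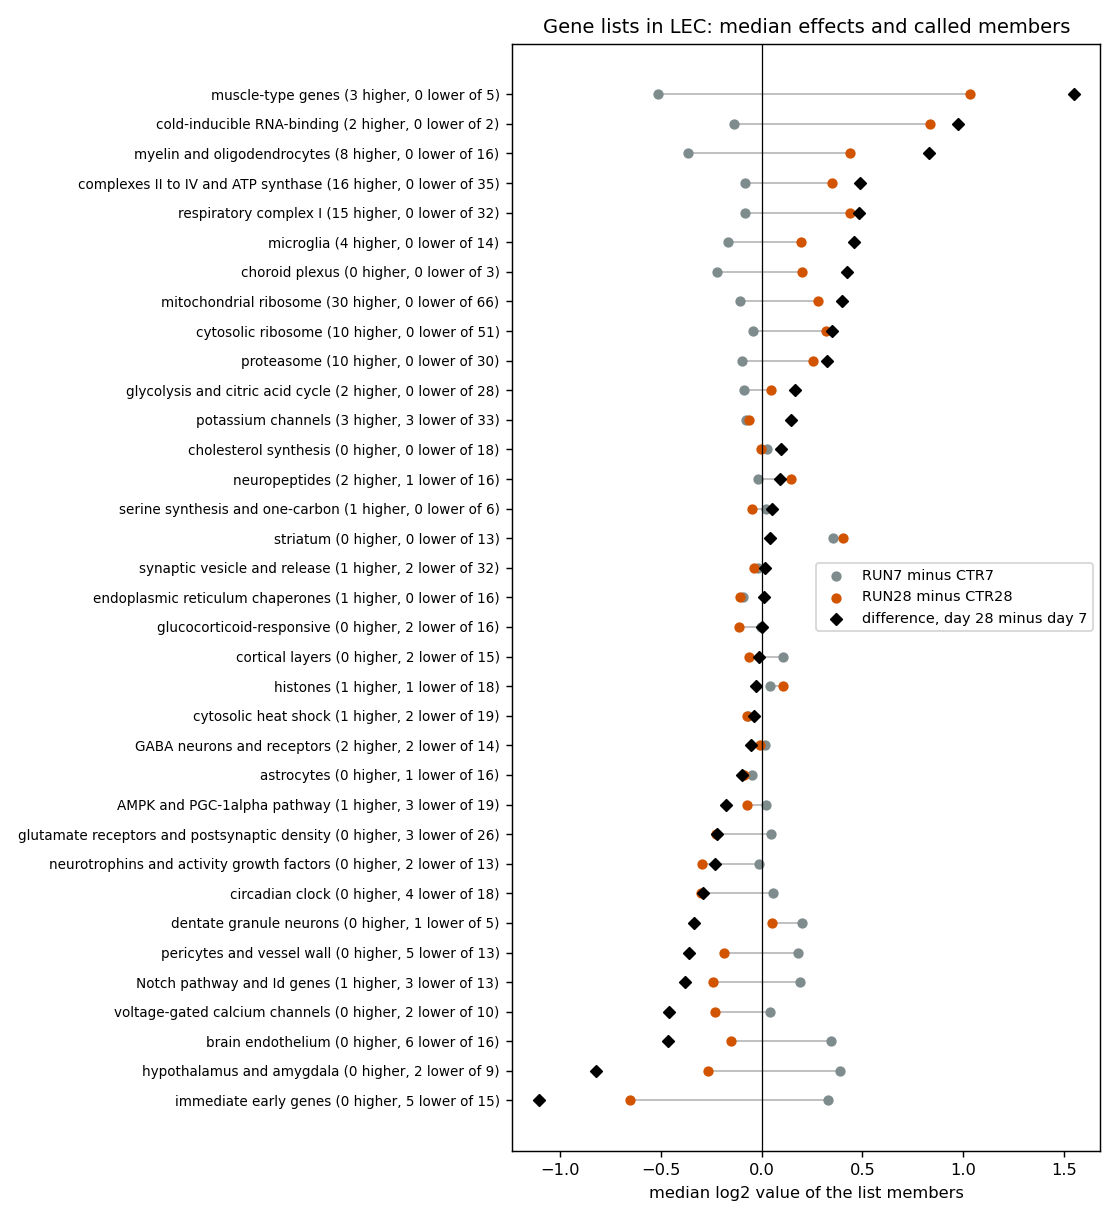
Median running effect of each gene list at day 7 and at day 28 and median difference between the days (points and diamonds, log2, x axis), with the lists and their called members on the y axis and the zero line marked. Mitochondrial, ribosomal, proteasome and myelin lists lie below 0 at day 7 and above 0 at day 28, and the immediate early and endothelial lists do the opposite.

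The remaining lists had few calls, to be read beside 8.71% higher and 8.77% lower over all genes tested. Of 19 genes around AMPK and PGC-1alpha, a pathway which couples energy demand to mitochondrial content, 1 rose and 3 fell (median -0.18). The regulatory subunit gene Prkag2 fell by 0.76 ± 0.19 (adjusted p = 0.00857) and Prkab1 rose by 0.44 ± 0.14 (adjusted p = 0.0373). Prkab1 lost its call without the first or second CTR7, the first RUN7, the third RUN7, the first or second CTR28, the second RUN28 or the third RUN28 array, and 1 gene of the list fell without the first CTR7, the second RUN7, the second CTR28, the fourth CTR28, the second RUN28 or the third RUN28 array. Of 19 cytosolic heat shock genes 1 rose and 2 fell (median -0.04), with the small heat shock genes Cryab at 0.82 (adjusted p = 0.0052) and Hspb1 at -0.91 (adjusted p = 0.0135). Of 32 synaptic vesicle genes 1 rose, the vesicle SNARE gene Vamp1 (0.94, adjusted p = 0.00376), and 2 fell (median 0.01). Doc2b, a calcium sensor of spontaneous release, fell by 2.13 ± 0.40 (adjusted p = 0.00172; second probe -2.10). Its levels were 0.05, -0.09 and 1.37 in CTR7, 1.53, 1.37 and 2.02 in RUN7, 1.74, 2.05, 1.44 and 1.82 in CTR28 and 1.41, 0.84 and 0.25 in RUN28. Of 16 glucocorticoid-responsive genes 2 fell (median -0.001), among them the NF-kappaB inhibitor Nfkbia (-0.91, adjusted p = 0.0212; lost without the first CTR7 or the third RUN7 array). Of 16 astrocyte genes 1 fell, Agt, the angiotensin precursor (-1.02, adjusted p = 0.0357), which was detected on 2 of 3 CTR7 arrays and lost its call without 7 of the 13 arrays, each left out in turn. Histones had 1 higher and 1 lower of 18, endoplasmic reticulum chaperones 1 higher of 16, serine synthesis and one-carbon genes 1 higher of 6, and cholesterol synthesis 0 of 18 with medians of -0.03, 0.01, 0.05 and 0.09. These 4 medians each changed sign without at least 1 array.

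Genes called at both days with opposite signs numbered 26, 7 of them rising and 19 falling in the difference. Besides those described above, the rising ones included Bet1l, a SNARE of the Golgi, with -0.42 at day 7 and 0.30 at day 28 (adjusted p = 0.043 and 0.035). Among the falling ones were Ntn3, an axon guidance netrin (0.59 and -0.39), Polr1a, the large subunit of RNA polymerase I (0.41 and -0.36), Csk, the kinase that restrains Src (0.44 and -0.29), the organic anion transporter gene Slco3a1 (0.55 and -0.46), the rhomboid-like gene Rhbdl3 (0.72 and -0.71), and Samd14 and Uaca (0.83 and -0.56, 0.59 and -0.59). For Ntn3, Polr1a and Slco3a1 the other probes gave differences of -0.14 to -0.42 that were not called. Adjusted p-values at day 7 lay close to the threshold for many of these genes, up to 0.043, and at day 28 up to 0.0473. Without the third RUN7 array 0 genes were called at day 7, so that the calls of these 26 on both days did not hold in every refit.

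Few called genes had the same sign on both days with a larger effect at day 28. This class was set by the signs of the estimates alone, so that a gene without a response at day 7 could fall in or out of it. The 16 genes with the same sign on both days and the larger effect at day 28 were 9 that rose, Arrdc4, Churc1, Cirbp, Mpv17, Nudt16, Nudt8, Spata24, Xpa and Zfp933, and 7 that fell, Atp8a1, Castor2, Dennd2a, Helz, Pitpnm3, Uhrf1bp1 and Zmynd8. They were named after their values were seen. The other probe of Castor2 had the opposite sign (0.10, adjusted p = 0.71, against -0.75 on the probe used). Their day 7 effects lay near 0, from -0.15 in Pitpnm3 to 0.16 in Arrdc4, and none passed the test at day 7. Churc1 had 2.44, 1.88 and 2.15 in CTR7, 1.98, 2.25 and 2.24 in RUN7, 2.11, 2.02, 1.96 and 2.15 in CTR28 and 2.80, 2.79 and 2.88 in RUN28, that is, 0.00 at day 7 and 0.76 at day 28 (adjusted p = 0.00233). Pitpnm3, a phosphatidylinositol transfer protein, had 1.40, 1.53 and 1.55, then 1.45, 1.32 and 1.28, then 1.63, 1.59, 1.33 and 1.57, and last 0.81, 0.74 and 0.77 in the same order of groups, with a day 28 effect of -0.76 (adjusted p = 0.000376). Mpv17, a protein of the inner mitochondrial membrane, had 0.00 and 0.61, and its 3 other probes differed by 0.33 to 0.54 between days without a call. Of these 16 and the 3 genes below, Cirbp, Mpv17, Pitpnm3 and Slc6a6 kept their calls in every alternative tried, and the other 15 lost theirs in at least 1, Churc1 without the first CTR7 array. Zmynd8 (-0.58, adjusted p = 0.0495) lost its call without 11 of the 13 arrays, each left out in turn. The 3 genes with a smaller effect of the same sign at day 28 were Slc6a6, the taurine transporter (0.65 at day 7, 0.03 at day 28), Ptpra, a receptor phosphatase (0.59 and 0.03), and Gpr26, which was not detected on any array of day 28.

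The same difference can be read as the change of runners from day 7 to day 28 minus the change of controls. Controls alone changed in 1386 genes between CTR7 and CTR28 (16.2%), 630 higher (7.37%) and 756 lower (8.85%), and runners in 1252 (14.7%), 536 higher (6.27%) and 716 lower (8.38%). Of the 744 genes that rose in the difference, 697 had opposite signs of the change in runners and in controls, with medians of 0.32 in runners and -0.31 in controls. Of the 749 that fell, 703 had opposite signs, with medians of -0.39 and 0.35. Among the 744, 320 fell in controls and 270 rose in runners past the threshold, 53 of them in both. Among the 749, 331 rose in controls and 333 fell in runners, 77 of them in both. Kif22, for example, fell by 1.22 in controls (adjusted p = 2.86e-06) and had 0.12 in runners (adjusted p = 0.611), while Nav1 had 0.34 in controls (adjusted p = 0.106) and fell by 1.36 in runners (adjusted p = 2.49e-05). Cox7a1 changed in both, by -0.73 in controls and 0.51 in runners. These comparisons share arrays with the main contrast and are no independent support of it.

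Running was also compared with controls at day 14. Against the first of the 2 control sets of that day, RUN14 gave 0 calls over all genes by limma (0%, 748 genes at an unadjusted p under 0.05, smallest adjusted p = 0.0633). The median day 14 effect was 0.10 for the 744 genes that rose and -0.06 for the 749 that fell. The immediate early genes had a day 14 median of -0.50, beside -0.65 at day 28. For single genes the effect was 0.13 in Cox7a1, 0.08 in Pvalb, 0.34 in Rbm3, -0.09 in Nav1, -0.35 in Per1, -0.97 in Egr4 and 0.05 in Flt1. For AICAR at day 7, which shares its controls with RUN7, 119 genes were called (1.39%), and the medians were -0.16 and 0.22. Values stood side by side at -1.18 for AICAR and -1.35 for running in Pvalb, at -1.60 and -1.12 in Tnnc1, at 0.62 and 0.72 in Bahcc1, and at 1.37 and 1.20 in Doc2b. In the vessel genes they stood at -0.42 and 1.28 in Flt1 and at 0.33 and 1.02 in Klf2.

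The change between days in LEC was set against that in DG by 1 fit that held all 54 arrays and treated each mouse as a random effect, since 21 mice gave both tissues. The estimated correlation between arrays of 1 mouse was -0.06, so that the arrays of a mouse were not more alike. In this fit 1019 of 9024 genes were called in LEC (11.3%), 513 higher (5.68%) and 506 lower (5.61%), and 795 in DG (8.81%), 449 higher (4.98%) and 346 lower (3.83%). The LEC difference itself departed from that in DG in 1334 genes (14.8%), 559 higher in LEC (6.19%) and 775 lower (8.59%). Of the 1019 LEC genes 576 were among these 1334. Of the 1019, 689 had the opposite sign in DG and 330 the same sign, and 83 were called lower in LEC and higher in DG, 21 the reverse and 9 in the same direction in both.

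Celsr3, an atypical cadherin of axon guidance, showed the widest gap among the 6 genes named for the smallest p between the tissues. On the scale of this fit its levels in LEC were 2.21, 2.53 and 2.12 in CTR7, 2.79, 3.01 and 2.76 in RUN7, 2.81, 2.84, 2.39 and 2.84 in CTR28 and 2.13, 1.60 and 1.75 in RUN28. In DG it stood at 3.72, 3.32 and 4.37 in CTR7, 2.40, 2.86 and 2.58 in RUN7, 2.52, 2.71 and 2.09 in CTR28 and 2.71, 3.21 and 2.74 in RUN28. Runners were thus above controls in LEC and below them in DG at day 7, and the reverse at day 28, without overlap except in DG at day 28, where 1 runner and 1 control had the same level. The difference of LEC from DG was -3.10 (adjusted p = 1.69e-05), and DG alone rose by 1.65 (adjusted p = 0.00149). Nav1 had -2.81 (adjusted p = 8.87e-06) with 1.06 in DG, and Prrc2b had -2.37 (adjusted p = 7.92e-06) with 0.98 in DG. In the other direction Mpv17 had 1.40 (adjusted p = 2.09e-05), Lsm3, of the RNA-processing Lsm ring, 1.20 (adjusted p = 0.000378) and Drg1, a translation-linked GTPase, 1.11 (adjusted p = 0.000147), although the second probe of Drg1 gave 0.11 in LEC. Mpv17 fell in DG by 0.77 (adjusted p = 0.00151).

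**Figure D5:**
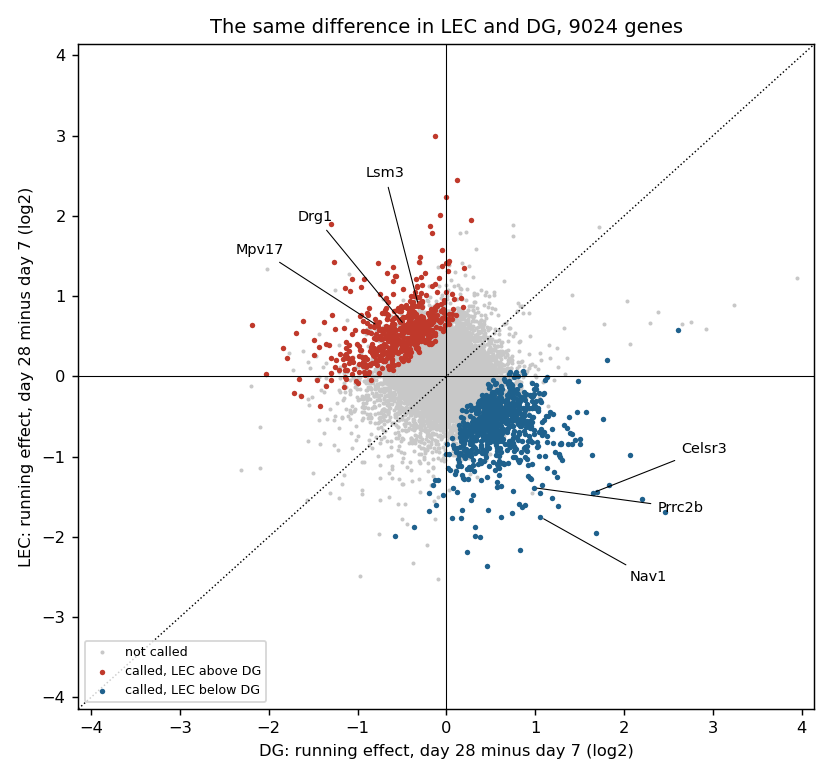
Difference of the running effect between day 28 and day 7 (log2) in DG (x axis) and LEC (y axis) for 9024 genes, with genes called in the comparison of both tissues in colour and the line of equal differences dotted. Celsr3, Nav1 and Prrc2b lie at the lower right, lower in LEC and higher in DG, and Mpv17, Drg1 and Lsm3 at the upper left.

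By list, 22 of 66 mitochondrial ribosome genes differed between the tissues, all higher in LEC, with medians of 0.41 in LEC and -0.09 in DG. Over all genes 6.19% were called higher in LEC and 8.59% lower. Complex I had 7 of 32 and the other complexes 7 of 35, all higher in LEC. Myelin genes had a median of 0.86 in LEC and -0.37 in DG, with 4 of 16 higher in LEC. Immediate early genes had -1.12 in LEC and -0.22 in DG, with 2 of 15 lower in LEC, and clock genes 3 of 18 lower in LEC (medians -0.30 and 0.17). In a list of this size 2 of 15 lies near the share of all genes. Of 19 AMPK and PGC-1alpha genes 5 were lower and 1 higher in LEC, and of 14 microglial genes 4 were higher and 0 lower. Endothelial genes had medians of -0.50 in LEC and -0.22 in DG, with 5 called lower in LEC, 2 in DG and 1 in each direction in the comparison. Pvalb differed by 3.13 (adjusted p = 0.0049) and had -0.13 in DG, and Flt1 by -1.41 (adjusted p = 0.0405) with -0.58 in DG.

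The genes that rose and those that fell also differed in a property the comparison did not use, the length of the gene in the genome. Genes that rose had a median span of 10.5 kb (quartiles 4.4 and 23.4, 744 of 744 with a span in RefSeq GRCm38.p6), genes that fell one of 39.9 kb (15.5 and 88.4, 749 of 749), and genes not called one of 22.8 kb (9.8 and 52.9, 7048 of 7052). Gene span goes with many other properties, among them function, since the ribosomal and mitochondrial genes above are short, and is given here as a description.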

How the data were processed

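RNA of LEC and DG was hybridised to Illumina MouseRef-8 bead arrays, 1 array per sample. The authors extracted probe intensities with GenomeStudio (version 1.6.0 in the submitters' processing notes), and the deposited table holds intensity without normalization. A detection p-value was deposited beside each intensity, from the authors' comparison of the probe with negative controls. A deposited score, the z value of log2 intensity within each array, was used as an alternative; it equalled the recomputed one.

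Here log2 intensities were z-transformed within each array, as in the study's methods, and multiplied by the mean SD of the LEC arrays (1.748), so that differences are log2 values. Division of each array by its own SD, a part of the z-transformation, removes differences in spread between arrays. The common factor sets only the scale. Probes with a detection p of 0.02 or less on every array of at least 1 group were kept, and the probe with the highest mean signal stood for each gene. A mean per group was fitted over all 28 LEC arrays with limma 3.58.1 in R 4.3.3 (moderated statistics, Benjamini-Hochberg adjustment over all 8545 genes, threshold 0.05); the scripts were tested on simulated data. The fit over 54 arrays treated the mouse as a random effect. Named genes were the 12 with the smallest p in each direction, the 1 to 3 members of each list with the smallest p, the 5 in each direction with the smallest p among genes with opposite signs and an unadjusted p under 0.05 on both days, and the 3 in each direction with the smallest p between the tissues; other genes were named after their values were seen. The members and the lists were chosen with earlier results of these data known. Alternatives were quantile and neqc normalization, the deposited score, other detection filters, every probe on its own, a fit of the compared groups alone, the replicate number as a block, array weights, and leaving out each array. The number of arrays limits the precision.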

Additional observations from a re-analysis of the deposited data

Results flagged for a closer look

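The running effect of day 28 differed from that of day 7 by the test of the difference itself in 1493 genes of LEC, and the difference in LEC departed from that in DG in 1334 genes. Among the genes named here, the difference between days in LEC was positive, on the log2 scale, in Pvalb (2.90), Tnnc1 (2.37), Myl4 (2.17), Ramp3 (1.95), Hspb3 (1.89), Mog (1.85), Opalin (1.72), Tnnt1 (1.55), Kif22 (1.33), Rbm3 (1.32), P2rx4 (1.24), Cox7a1 (1.23), Fuom (1.12), Npy (1.06) and Uxt (1.02). Smaller positive differences were those of 1700016K19Rik (0.99), Qdpr (0.98), Krt12 (0.97), Tmem141 (0.97), Chil1 (0.97), Atp5l (0.96), Rpl36a (0.94), Vamp1 (0.94), Kcnk1 (0.91), Cryab (0.82), Sdhb (0.81), Ndufs4 (0.80), Churc1 (0.76), Atp5j2 (0.76), Gpr26 (0.75), Ndufa7 (0.73), Mrpl30 (0.72) and Bet1l (0.72). The least of them were Mrps33 (0.70), Mrpl11 (0.69), Spata24 (0.67), Psma7 (0.66), Ndufa12 (0.66), Rpl23a (0.64), Cirbp (0.64), Mpv17 (0.61), Fh1 (0.60), C1qb (0.59), Nudt8 (0.59), Trem2 (0.57), Psmc3 (0.51), Xpa (0.45), Arrdc4 (0.45), Zfp933 (0.44), Prkab1 (0.44) and Nudt16 (0.39).

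Negative differences of the largest size were those of Trh (-2.44), Doc2b (-2.13), Per1 (-2.11), Flt1 (-1.94), Hap1 (-1.93), Klf2 (-1.82), Egr4 (-1.74), Nav1 (-1.70), Per2 (-1.62), Bahcc1 (-1.61) and Tnrc6c (-1.57). They were followed by Rhbdl3 (-1.43), Bcl11b (-1.42), Samd14 (-1.39), Grik5 (-1.36), Prrc2b (-1.34), Cacna1h (-1.31), Zcchc14 (-1.27), Col4a2 (-1.26), Vgf (-1.25), Acta2 (-1.25), Col18a1 (-1.20), Gpr17 (-1.20), Uaca (-1.18), Reln (-1.15), Prkd2 (-1.13), Gabrb1 (-1.12), Notch1 (-1.09), Fam126a (-1.05), Id4 (-1.05), Fbrsl1 (-1.05), Agt (-1.02) and Slco3a1 (-1.01). Smaller negative values belonged to Ntn3 (-0.98), Hspb1 (-0.91), Nfkbia (-0.91), Slc2a1 (-0.90), Slco1a4 (-0.87), Nup210 (-0.84), Kcnf1 (-0.82), Polr1a (-0.77), Prkag2 (-0.76), Castor2 (-0.75), Jun (-0.75), Csnk1d (-0.74), Csk (-0.73), Nlgn2 (-0.71), Slc6a6 (-0.62), Pitpnm3 (-0.61), Zmynd8 (-0.58), Atp8a1 (-0.56), Ptpra (-0.56), Helz (-0.53), Vegfa (-0.51), Dennd2a (-0.49) and Uhrf1bp1 (-0.48). Between the tissues, the difference in LEC minus that in DG was -3.10 in Celsr3, -2.81 in Nav1, -2.37 in Prrc2b, 1.40 in Mpv17, 1.20 in Lsm3 and 1.11 in Drg1.

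Single arrays stood apart from the other arrays of their group in a few places. In CTR28, the third array was far above the other 3 for Cirbp (2.45) and far below them for Celsr3 (2.32 in the fit over LEC arrays alone) and for the mean level of the cortical layer markers (1.83), and the second array was far above the others for Atp8a1 (1.61). Such an array was found in 3 of the 111 named genes tested in this group of 4, where chance gives about 1 in 20.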

How the results depend on the processing

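The count of genes called in the difference between days was 1668 after quantile normalization, 1611 after neqc, 1493 with the deposited score, 1308 without a detection filter and 1018 in a fit of the compared groups alone, and it was highest with array weights (2382). Without single arrays it ranged from 778 to 1765. None of the 1493 genes turned its sign in these settings. For RUN7 against CTR7 the count was 46 without a detection filter, 0 in that fit, 577 with array weights and 0 to 430 without single arrays. For RUN28 against CTR28 it was 2641 with weights and 314 to 1646 without single arrays. CTR28 against CTR7 gave 790 genes in a fit of the compared groups and 506 to 1506 without single arrays, the lowest without the first CTR7 array. RUN28 against RUN7 gave 745 in such a fit, 2316 with weights and 491 to 1349 without single arrays (516 and 787 without RUN7 replicates 1 and 3, 728 and 491 without RUN28 replicates 2 and 3). The comparison of LEC with DG gave 842 genes with only the arrays of days 7 and 28 and 875 to 1567 without single arrays, the lowest without the first CTR7 array of LEC. The cause of these changes was not tested.

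Of the genes tried, 2 that were not called changed sign. Ttr, of the choroid plexus, had -0.014 without the second CTR7 array and up to 1.57 without the first, and Syndig1l, a striatal marker, had 0.07 without the third RUN7 array and -0.76 without the first RUN7 array. Among 152 named results, 149 kept direction and side of the threshold after quantile normalization, 146 after neqc, 118 without the first CTR7 array and 125 without the third RUN28 array.

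With the replicate number as a block within each day, 918 genes were called in the difference between days, 10 at day 7 and 578 at day 28, and 126 of the 152 named results kept their call. The deviations of samples with the same number correlated at 0.243 and 0.401 in 2 of the 3 pairs of day 7 and at 0.004 in the third, and at -0.155, 0.004 and 0.073 at day 28. Since not every pair deviated together, the numbers are not known to pair the mice. A block was not fitted for the comparisons between days, which hold different mice. Dim genes, such as those detected on only some arrays of a group, have less certain differences, because their signal lies close to the background. Some genes named for their small p had levels below the array mean in some groups. With other ways of processing their differences ranged from 1.23 to 1.84 in Cox7a1 and from 1.88 to 2.65 in Hspb3. The ranges were 1.22 to 1.74 in P2rx4, 0.96 to 1.43 in 1700016K19Rik and -1.72 to -1.16 in Col18a1.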
